A study of Mus musculus with 6 samples.

Results

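Aminoacyl-tRNA synthetases, the enzymes that attach each amino acid to its transfer RNA, were followed in cultured mouse astrocytes 3 days after a lentivirus carrying the Cre recombinase or a control lentivirus. The family was chosen with earlier results of these data known. Its genes were then taken by name alone, without regard to the size of a difference. The rule covered cytosolic and mitochondrial synthetases (the latter with a 2 at the end of the symbol) and the scaffold proteins Aimp1 and Aimp2. Of the 23473 probes on the array, 38 probes for 37 genes met that rule, and every one had a value in the authors' table on 3 or more of the 6 arrays. They comprise 20 cytosolic synthetase genes, 15 mitochondrial synthetase genes and 2 scaffold genes. Symbols are those of the array's annotation, in which Aars stands for the gene now called Aars1, and so on for the other cytosolic enzymes.

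The cells were astrocytes from the cortex of newborn (P0) C57BL/6J mice with floxed alleles of Chd7, a chromatin remodeller gene, and both groups carried these alleles. The control group comprised 3 samples given the control virus and the Cre group 3 samples given the Cre virus, all grown in 10% fetal bovine serum with FGF2, EGF and the B-27 supplement. Cre reached only the group in which Chd7 was targeted, so the recombinase and the loss of Chd7 cannot be told apart as sources of a difference. The labels name neither the promoter that drove Cre nor separate cultures or animals behind the replicates, and the p-values therefore cover only sample-to-sample spread, possibly technical. The brighter of 2 Chd7 probes averaged 5.99 ± 0.02 log2 units in the Cre group against 7.12 ± 0.32 in the control group (SD, n = 3), with no overlap. The size of that difference, -1.13, moved with the background setting: it was -0.52 with the scanner's local background column, -1.83 with an offset of 16, -2.71 with plain subtraction of the blank mean and -2.86 in the authors' values. The dimmer one averaged 6.03 ± 0.08 against 6.14 ± 0.06 (SD, n = 3), with overlap. Between 82.9 and 87.0% of probes lay above background on Cre arrays and between 87.4 and 90.8% on control arrays.

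A synthetase recognises its amino acid and the matching transfer RNA, and the enzymes are sorted into a pair of unrelated structural classes, class I and class II. In the cytosol of animal cells several of them join the scaffold proteins in a multisynthetase complex, while mitochondria import a separate set, encoded in the nucleus, for their own ribosomes. Lysyl- and glycyl-tRNA synthetase (Kars and Gars) each serve both compartments from a single gene. Many cytosolic synthetase genes also belong to the amino acid response, in which the transcription factor ATF4 turns on genes of amino acid supply through a DNA element shared with C/EBP factors.

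The core of that element is shown first because the values of genes with it in the promoter are given further on. RefSeq promoters (GRCm38.p6, 250 bases before to 50 bases after each start) were held for 28 of the 37 genes, and not for Nars, Lars, Hars, Cars, Rars, Vars, Wars, Hars2 and Pars2. They were searched on both strands for the core TGATGNAA, whose reverse complement is TTNCATCA. The core was present in 5 of 8 promoters (62.5%) of cytosolic synthetases listed as amino acid response genes. It was present in 0 of 5 promoters of other cytosolic synthetases, in 0 of 13 mitochondrial synthetase genes and in 1219 of all 27025 genes in the table (4.51%). Among 26 other genes of the response with a promoter, 9 held it (34.6%). The matches of Gars, Iars, Tars, Yars and of 4 other response genes are given with 11 bases on each side, on the strand of the gene, with the match in capitals.
Gars: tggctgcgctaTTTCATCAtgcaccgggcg
Iars: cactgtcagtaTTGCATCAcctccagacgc
Tars: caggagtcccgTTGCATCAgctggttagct
Yars: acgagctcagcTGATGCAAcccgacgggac
Asns: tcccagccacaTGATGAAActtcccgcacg
Chac1: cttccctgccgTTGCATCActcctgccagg
Pck2: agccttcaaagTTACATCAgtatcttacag
Trib3: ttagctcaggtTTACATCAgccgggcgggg

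The Gars match (chr6:55037960-55037989, plus strand) begins 30 bases before the start and the Tars match (chr15:11399655-11399684, minus strand) 15 bases before it. The Iars match (chr13:49682126-49682155, plus strand) begins at base 8 after the start and the Yars match (chr4:129189895-129189924, plus strand) at base 4. All intervals are those of the printed 30 bases. The whole 250 bases before the start of Tars and of Asns, the asparagine synthetase gene, show how close to the start the core lies in both. A match is a description of the letters only, and the array's probes were not placed relative to these starts.
Tars, chr15:11399659-11399908, minus strand: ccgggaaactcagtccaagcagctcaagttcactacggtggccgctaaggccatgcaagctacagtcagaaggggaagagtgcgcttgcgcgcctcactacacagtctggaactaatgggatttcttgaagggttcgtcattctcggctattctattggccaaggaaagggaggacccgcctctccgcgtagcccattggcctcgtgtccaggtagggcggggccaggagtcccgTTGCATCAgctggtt
Asns, chr6:7693210-7693459, minus strand: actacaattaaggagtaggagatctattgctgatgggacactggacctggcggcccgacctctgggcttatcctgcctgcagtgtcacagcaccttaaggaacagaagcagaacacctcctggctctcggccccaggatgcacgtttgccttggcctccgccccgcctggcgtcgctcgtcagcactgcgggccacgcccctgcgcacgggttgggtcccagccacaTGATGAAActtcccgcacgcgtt

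The comparison asked whether synthetase transcripts differed between cultures given Cre and cultures given the control virus. As a family they did not move one way: 17 genes were higher with Cre and 20 lower, the median of their log2 differences was -0.03, and 50.2% of all 17153 genes tested lay below 0. In the authors' processed values, where the median of all probes was itself shifted by -0.17, the split was 8 higher and 29 lower. In limma, 0 of the 37 genes and 0 of the 20542 probes tested reached an adjusted p under 0.05, and 1154 probes had an unadjusted p under 0.05. At an unadjusted p under 0.05 there were 5 member genes (13.5%), beside 5.85% of all genes. The lower ones were Nars, Lars and Yars2 (3 of 37, beside 2.96% of all genes), and the higher ones were Hars and Iars2 (2 of 37, beside 2.89%). Pairing same-numbered arrays in the fit (a replicate block) gave the same 3 lower and 2 higher genes, beside 4.97% and 4.72% of all genes. The same 5 genes were those whose Cre and control arrays did not overlap, beside 5.29% of all genes for lower and 5.36% for higher levels. Without control replicate 2 the lower genes at that level were 1 in number (Aimp1), and without Cre replicate 1 they were again 1 (Yars2) and the higher ones 0.

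The differences were small. The fitted difference was at most 1.21-fold among the 20 cytosolic genes and at most 1.33-fold, in Lars2, among the 15 mitochondrial ones. For 31 genes the 95% interval of the difference lay wholly within a 1.5-fold change in either direction. For Iars, Sars, Eprs, Farsa, Farsb and Lars2 it reached past that size. The median standard error was 0.12 log2 units for the cytosolic and 0.08 for the mitochondrial genes, beside 0.07 over all probes. Probes close to background are compressed by the background correction, which also narrows their intervals. Iars2, Wars2, Sars2, Aars2 and Pars2, at 19 to 36 units in the authors' values, are among the 31 genes. With plain subtraction of the blank mean Iars2 went from 0.15 (SE 0.05) to 0.36 (SE 0.15). The brighter Nars went from -0.16 (SE 0.05) to -0.17 (SE 0.13), so its standard error rose although its difference hardly moved. The standard error of Hars went from 0.09 to 0.15, whereas that of Lars2 went from 0.36 to 0.34. Narrow intervals under the main setting were thus not confined to dim probes. The count of 31 and the median standard errors of 0.12 and 0.08 are to be read with that limit. The Aars probe, also among the 31, lay lowest, at 1 to 2 units in the authors' values with 1 empty cell. Its difference of 0.01 says nothing about alanyl-tRNA synthetase, and Aars is left out of the values by promoter core.

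Among the cytosolic enzymes, asparaginyl-tRNA synthetase (Nars) read 10.71, 10.66 and 10.59 log2 units on the control arrays and 10.48, 10.56 and 10.42 on the Cre arrays. All Cre values lay below all control values. The difference was -0.16 (SE 0.05, 95% interval -0.30 to -0.03, limma adjusted p = 0.777). Leucyl-tRNA synthetase (Lars), a member of the multisynthetase complex that is also known as a leucine sensor, read 7.97, 8.15 and 8.02 in control and 7.73, 7.97 and 7.65 in Cre cultures. The second Cre array and the first control array met at 7.97 after rounding, and the other Cre arrays lay lower. Its difference was -0.26 (SE 0.10, limma adjusted p = 0.840), and -0.24, -0.18 and -0.37 in the same-numbered pairs.

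Histidyl-tRNA synthetase (Hars) went the other way, at 9.78, 10.11 and 10.01 in control and 10.15, 10.22 and 10.21 in Cre cultures. The Cre arrays lay close together and just above the highest control array, and most of the spread was among the controls. The difference was 0.23 (SE 0.09, limma adjusted p = 0.886), and -0.25 when the scanner's local background column replaced the blank spots. Lysyl-tRNA synthetase (Kars), in the complex, read 10.19, 10.48 and 10.23 in control and 10.63, 10.52 and 10.29 in Cre cultures. The groups overlapped, and the pair differences of 0.44, 0.04 and 0.06 show that the mean of 0.18 (SE 0.12) came mostly from the first pair. Threonyl-tRNA synthetase (Tars), whose promoter is printed above, read 9.22, 9.41 and 9.09 in control and 8.86, 9.12 and 9.19 in Cre cultures. The groups overlapped, with a difference of -0.18 (SE 0.12), and the third pair had the other sign (0.11).

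**Figure D1:**
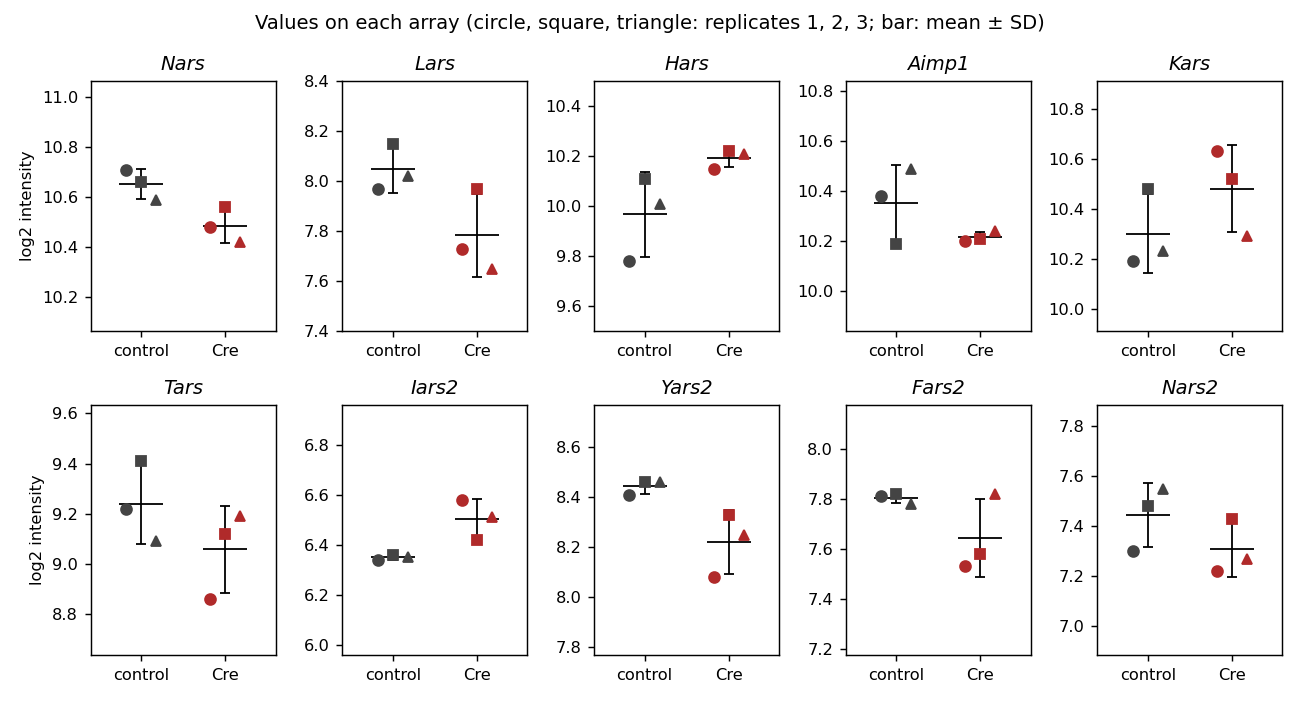
Log2 intensity of 10 member genes on each of the 6 arrays, with control arrays in grey, Cre arrays in red, a symbol for each replicate and the mean ± SD (n = 3 per group); every panel spans 1 log2 unit. The groups are separate for Nars, Lars, Hars, Iars2 and Yars2, the 5 genes at an unadjusted p under 0.05, and overlap in the other panels.

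The multisynthetase complex was measured through 10 genes, 3 of them higher and 7 lower with Cre (median -0.11). Its scaffold protein gene Aimp1 read 10.38, 10.19 and 10.49 in control and 10.20, 10.21 and 10.24 in Cre cultures. The middle control array lay below all Cre arrays, so the groups overlapped, and the difference was -0.14 (SE 0.08). The other scaffold gene, Aimp2, which holds the complex together, stood at 0.07 (SE 0.07). Besides Lars, the enzymes lower in Cre cultures were Eprs, which charges both glutamate and proline, at -0.27 (SE 0.20), isoleucyl Iars at -0.26 (SE 0.18), arginyl Rars at -0.13 (SE 0.09) and methionyl Mars1 at -0.08 (SE 0.13). Glutaminyl Qars stood at 0.12 (SE 0.12). Eprs, Iars, Rars, Mars1, Qars and both scaffold genes missed an unadjusted p of 0.05. Eef1e1, a further scaffold component whose symbol falls outside the name rule, stood at -0.06 (SE 0.11).

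Cytosolic enzymes outside the complex, besides Nars, Hars and Tars, differed by -0.11 to 0.26. Seryl Sars stood at 0.26 (SE 0.19), a mean that rested on the second control array at 9.75 against 10.31 to 10.50 on the Cre arrays and 10.38 and 10.39 on the other controls. The alpha and beta subunits of phenylalanyl-tRNA synthetase, which act as one enzyme, had opposite signs, Farsa at 0.19 (SE 0.17) and Farsb at -0.11 (SE 0.20). Tryptophanyl Wars stood at 0.10 (SE 0.12), valyl Vars at -0.04 (SE 0.08), glycyl Gars at -0.08 (SE 0.17), tyrosyl Yars at -0.03 (SE 0.18) and cysteinyl Cars at 0.00 (SE 0.05). Tarsl2, a further threonyl enzyme, stood at 0.11 (SE 0.11), with the sign opposite to that of Tars. By structural class, with Eprs counted in class I alone, 3 of 10 cytosolic class I genes were higher in Cre cultures (median -0.06). Of 10 class II genes, 6 were higher (median 0.06).

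Among the mitochondrial enzymes, 7 of 15 genes were higher and 8 lower with Cre (median -0.02). Isoleucyl-tRNA synthetase 2 (Iars2) read 6.34, 6.36 and 6.35 log2 units in control and 6.58, 6.42 and 6.51 in Cre cultures. All Cre arrays lay above all controls, with a difference of 0.15 (SE 0.05, limma adjusted p = 0.766). The probe is dim, at 19 to 27 units in the authors' values, whose median over each array is 25. Tyrosyl-tRNA synthetase 2 (Yars2) read 8.41, 8.46 and 8.46 in control and 8.08, 8.33 and 8.25 in Cre cultures. Here all Cre arrays lay below all controls, with a difference of -0.22 (SE 0.07, limma adjusted p = 0.769).

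Phenylalanyl-tRNA synthetase 2 (Fars2) read 7.81, 7.82 and 7.78 in control and 7.53, 7.58 and 7.82 in Cre cultures. The third Cre array was level with the highest control, and the difference was -0.16 (SE 0.08). Asparaginyl-tRNA synthetase 2 (Nars2) read 7.30, 7.48 and 7.55 in control and 7.22, 7.43 and 7.27 in Cre cultures. Its groups overlapped, with a difference of -0.14 (SE 0.09), the same sign as its cytosolic counterpart Nars. The signs of Yars (-0.03) and Yars2 (-0.22) also matched, whereas Iars (-0.26) and Iars2 (0.15) had opposite signs, as did Hars (0.23) and Hars2 (-0.09).

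Leucyl-tRNA synthetase 2 (Lars2), described after its values were seen, had the largest fitted difference of the family and the largest spread. It read 11.76, 10.75 and 11.35 in control and 11.28, 12.30 and 11.51 in Cre cultures. The lowest and the highest value both came from replicate 2, one in each group, and the other arrays overlapped. The difference of 0.41 (SE 0.36, 95% interval -0.48 to 1.31) was thus within the spread, and the pairs gave -0.47, 1.55 and 0.16. The other 10 mitochondrial enzymes lay between -0.10 (Tars2) and 0.11 (Mars2). In Vars2, the member with 2 probes, the brighter read -0.03 (SE 0.05) and the dimmer 0.02 (SE 0.09).

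**Figure D2:**
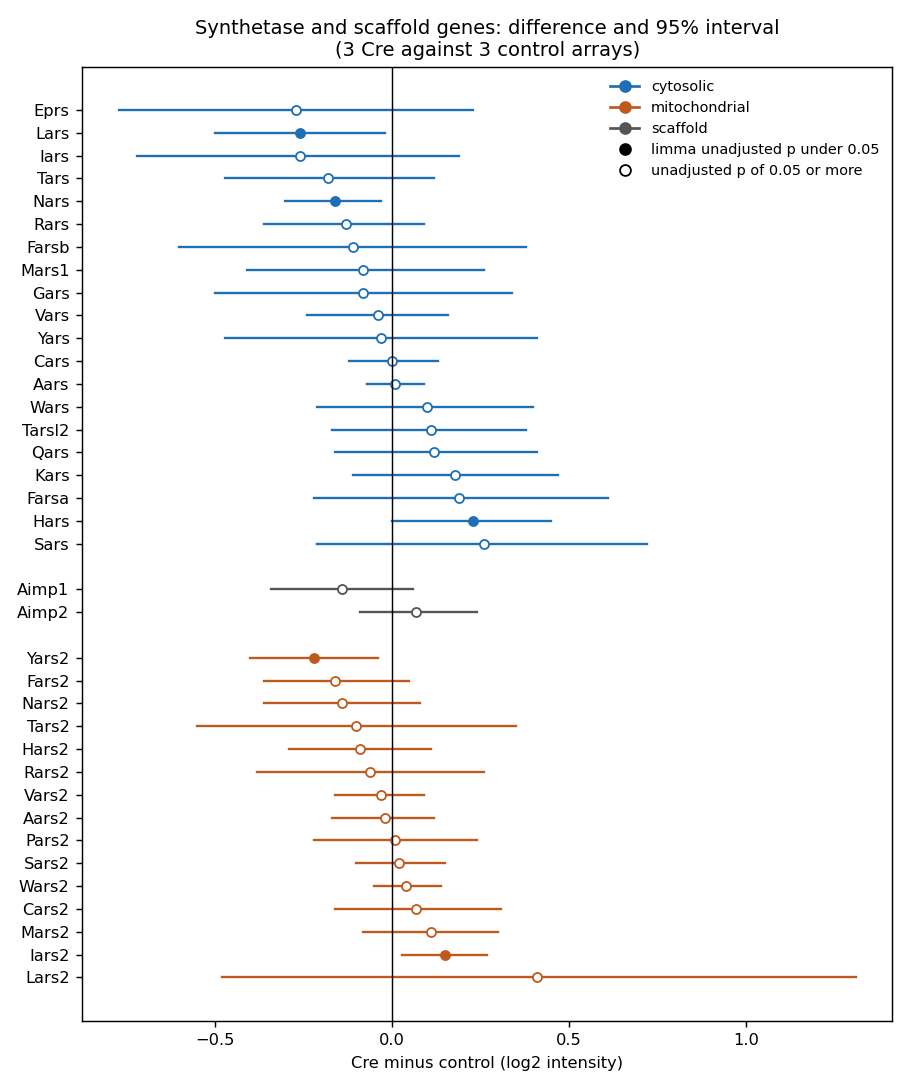
Difference in log2 intensity, Cre minus control, for the 37 member genes, with the 95% interval from limma (3 arrays per group); filled points are genes at an unadjusted p under 0.05. Most intervals cross 0, and the widest is that of Lars2 (-0.48 to 1.31).

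The synthetases were then set beside the other genes of the amino acid response, a list chosen with earlier results of these data known. Atf4 itself read 11.02, 11.10 and 11.04 log2 units in control and 10.36, 10.75 and 10.36 in Cre cultures. All Cre arrays were lower, by a mean of -0.56 (SE 0.12, limma adjusted p = 0.539). Asns read 10.61, 11.12 and 10.96 in control and 9.85, 9.95 and 10.32 in Cre cultures, again without overlap, a difference of -0.86 (SE 0.18, limma adjusted p = 0.561). Of 29 such genes that encode no synthetase, 22 were lower with Cre (median -0.35), and 9 were lower at an unadjusted p under 0.05 (31.0%, beside 2.96% of all genes; 11 with the replicate block, beside 4.97%). They included the kinase-like regulator Trib3 at -0.53 (SE 0.13), while the mTORC1 inhibitor Ddit4 stood at 0.52 (SE 0.14), the highest of the list. None of the 29 passed over all probes.

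Of the 12 synthetases that belong to the same response, 8 were lower and 4 higher, with a median of -0.08. Nars and Lars (2 of 12, 16.7%, beside 2.96% of all genes) were lower at an unadjusted p under 0.05. The order of these medians turned round with the scanner's local background column, where the synthetases stood at -0.36 and the 29 other genes at -0.10. The 8 other cytosolic synthetases had a median of 0.11, with 5 higher and 3 lower. Among genes with the printed core in the promoter, the 4 synthetases measured above background on all arrays (Gars, Iars, Tars and Yars) stood between -0.26 (Iars) and -0.03 (Yars), with a median of -0.13 and 0 at an unadjusted p under 0.05 in limma. The 9 other response genes with the core stood between -0.86 (Asns) and 0.10 (Slc1a4), with a median of -0.45. Of these 9 genes, 5 were lower at that level, beside 2.96% of all genes. These 5 were Asns, Trib3, Pck2 at -0.57 (SE 0.16), Chac1 at -0.67 (SE 0.21) and Slc7a11 at -0.38 (SE 0.12). No test of the difference between the lists was made. The 95% intervals of all 4 synthetases held both 0 and that median of -0.45. They were -0.50 to 0.34 for Gars, -0.72 to 0.19 for Iars, -0.47 to 0.12 for Tars and -0.47 to 0.41 for Yars.

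**Figure D3:**
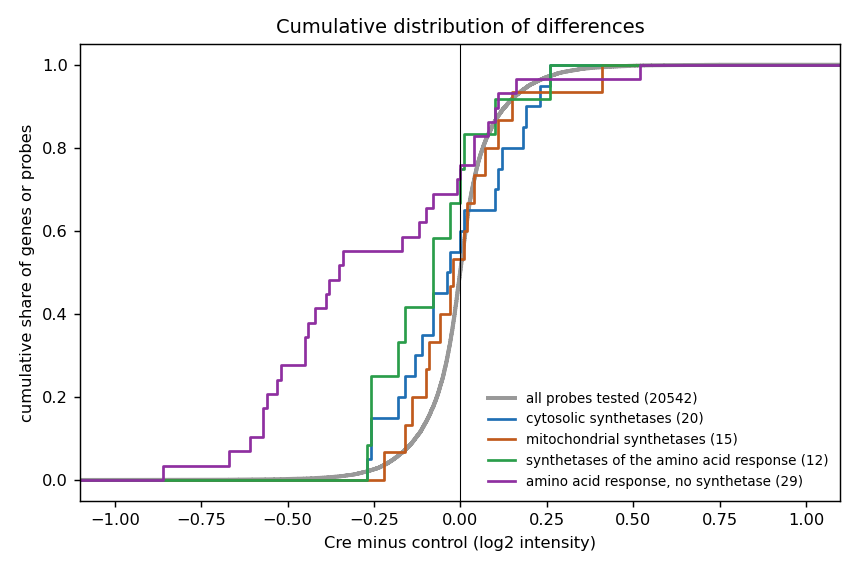
Cumulative share of differences in log2 intensity (Cre minus control) for all probes tested, the cytosolic and mitochondrial synthetases, the 12 synthetases of the amino acid response and the 29 other genes of that response. The curves of cytosolic and mitochondrial synthetases cross 0 near the middle, that of the 12 response synthetases has 8 of 12 genes below 0 (median -0.08), and that of the 29 other response genes lies further left (median -0.35).

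Single arrays carried much of the variation within the family. The median of the 12 response synthetases was -0.28, 0.00 and 0.09 in the 3 same-numbered pairs, and that of the 20 cytosolic genes -0.12, 0.00 and 0.08. In the first Cre array 6 of the 12 response synthetases had their lowest value, and the median deviation from each gene's own mean was -0.22 there, against 0.00 to 0.07 on the other arrays. The 29 other response genes were lowest on the same array in 17 cases, with a median deviation of -0.38. Their medians by pair were -0.20, -0.27 and -0.17. Without Cre replicate 1 the median of the 12 response synthetases was 0.01 and that of the 29 other genes -0.21. Without control replicate 2 the second median was -0.11, and the first stayed at -0.08. Without control replicate 3 the number of the 29 genes lower at an unadjusted p under 0.05 was 5 in place of 9.

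**Figure D4:**
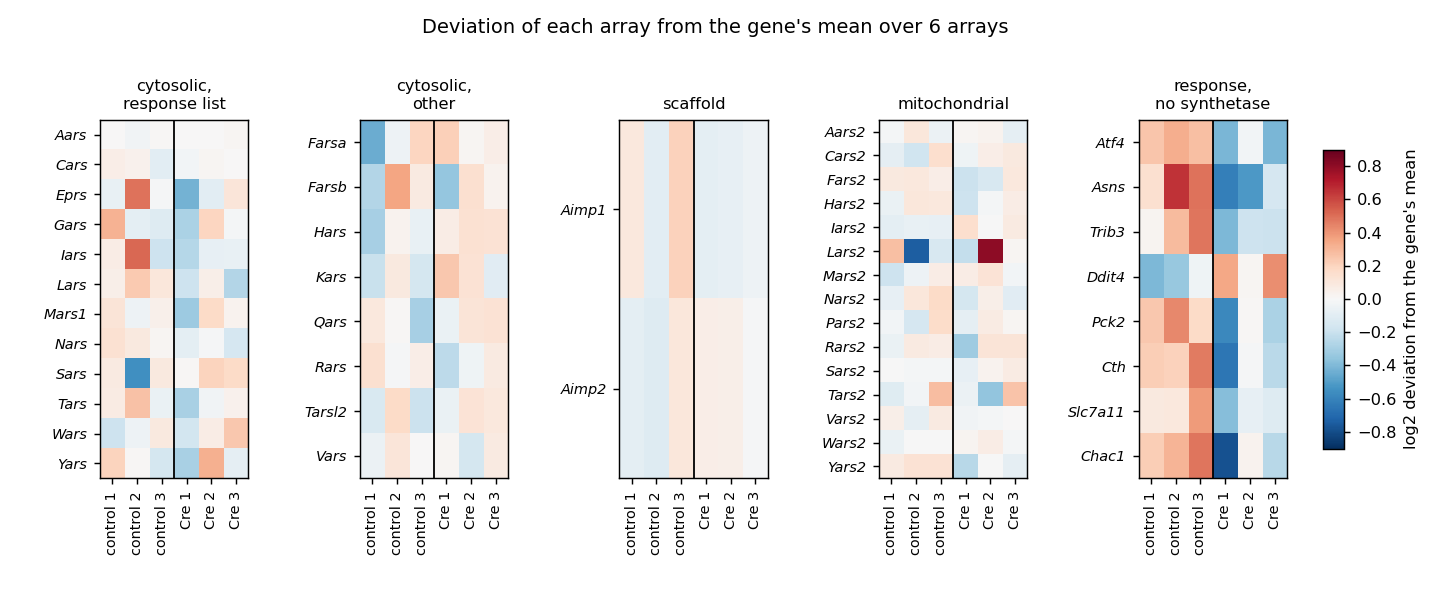
Deviation of each array from the gene's mean over the 6 arrays, in log2 units (blue lower, red higher), for the cytosolic synthetases of the amino acid response list, the other cytosolic synthetases, the scaffold genes, the mitochondrial synthetases and the 8 other response genes with the smallest p. In the last panel the control columns and those of Cre replicates 1 and 3 differ in colour for each gene, with paler Cre replicate 2 columns apart from Asns, which the choice by p favours; in the synthetase panels colours mostly do not follow the groups, and the strongest colours belong to Lars2 on replicate 2 of each group.

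Genes next to the synthetases in the pathway were measured through 13 genes outside the name rule, of which 4 were higher and 9 lower in Cre cultures (median -0.06). The selenocysteine pathway, which converts serine on its transfer RNA, was split. The kinase gene Pstk stood at -0.26 (SE 0.08) and the synthase gene Sepsecs at 0.42 (SE 0.15). These were the 2 genes of this list at an unadjusted p under 0.05 (15.4%, beside 5.85% of all genes). The amidotransferase subunits that make glutaminyl-tRNA in mitochondria also differed in sign, Gatb at 0.43 (SE 0.20) and Gatc at -0.18 (SE 0.10). Without control replicate 3, Sepsecs stood at 0.25 and Gatb at 0.20, and without control replicate 2 Gatc stood at -0.08. With the local background column Sepsecs was at 0.03, Pstk at 0.09 and Gatc at 0.08. Xpot, which exports transfer RNA from the nucleus, stood at 0.03 (SE 0.10). The probe of Ears2, the mitochondrial glutamyl-tRNA synthetase that feeds the amidotransferase step, lay as near to background as that of Aars, at 2 to 4 units in the authors' values with 1 empty cell, and its difference is not interpreted.

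The cell type label was checked with marker lists. All 10 astrocyte markers lay above background on every array. So did all 10 neuron, all 9 oligodendrocyte lineage, 9 of 10 microglia and 9 of 10 fibroblast and mural markers on the array. Of 10 endothelial markers 6 did. Detection thus did not single out astrocytes. The median astrocyte marker stood at 355 units in the authors' values. Medians of the other lists ran from 4 (endothelial) to 38 (fibroblast and mural). All 10 astrocyte markers were higher in Cre cultures (median 0.24), 4 of them at an unadjusted p under 0.05 (40%, beside 2.89% of all genes). Of 9 microglia markers tested, 7 were lower (median -0.17), 4 of them at an unadjusted p under 0.05 (44.4%, beside 2.96% of all genes), and their summed log2 level ranged from 60.46 to 61.25 in control and from 58.30 to 59.65 in Cre cultures. Cd68 of the same list, chosen after its values were seen, went the other way, at 0.48 (SE 0.08) without overlap. Itgam, the 10th gene of that list, lay below the background filter. Among markers of other cell types Acta2, Tagln and Olig1 were bright, at 13.59, 13.06 and 11.25 log2 units in control cultures. Neuron markers were split (6 higher and 4 lower, median 0.02), as were those of fibroblasts and mural cells (4 and 6, median -0.08). The part of these shifts in the synthetase values was not tested, and in such bulk cultures fewer cells of a type and less RNA per cell cannot be told apart.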

How the data were processed

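RNA of 6 samples (3 per group) was hybridised to 1-colour arrays. The authors deposited scanner files with the median intensity of each spot, from which no background was subtracted per the file headers, and a table of processed intensity values on a linear scale whose column medians are all 25. No source used here describes how that table was made. Here the blank spots (2736 per array) set the background of the spot intensities, through limma's nec (normexp, offset 50), before log2 transformation and quantile normalisation. The local background column served as an alternative only. Spots with a scanner mark were dropped (0 to 9 on an array). Probes over the blank mean by 2 SD on 3 or more of 6 arrays were kept, 20542 for 17153 genes, and the brightest probe stood for a gene. Groups were compared with limma 3.58.1 in R 4.3.3 (lmFit and eBayes, two-sided tests, Benjamini-Hochberg over all probes). The fit was also run on simulated data whose arrays were drawn independently. That run did not cover deviations shared by same-numbered arrays. The number of arrays limits the precision: with 3 against 3, exact permutation reaches p = 0.1 at the smallest.

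Of the probes, 20690 had 1 gene symbol and 2783 none, and all 37 member genes matched the RefSeq table (GRCm38.p6). The members and gene lists were chosen with earlier results of these data known. Values on every array are given for the 6 cytosolic or scaffold genes and the 4 mitochondrial genes with the smallest p, for Atf4 and for Asns. Other lists are represented by up to 4 genes with the smallest p, and Chd7 is always given. Names outside this rule (Lars2, Cd68, Acta2, Tagln, Olig1, Sars on its arrays, Cars, the genes with the promoter core) were chosen after their values were seen. Xpot, Ears2 and Eef1e1 are also given with values although they fall outside the rule. Same-numbered arrays deviated together from their group means, with correlations of 0.498, 0.425 and 0.436, a sign of pairing, although no label names a litter, culture or day in common. All values printed come from the fit without a block unless the replicate block is named.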

Additional observations from a re-analysis of the deposited data

How the results depend on the processing

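No member gene and no probe passed the adjusted threshold under any of the 15 alternatives. With the replicate number as a block (replicate block) the member genes at an unadjusted p under 0.05 remained 3 lower and 2 higher, with 0 probes past the adjusted threshold. Outside the members the block changed calls at that level: the response list went from 9 to 11 lower genes, astrocyte markers from 4 to 5 higher, neuron markers from 2 to 3 higher, fibroblast and mural markers from 0 to 2 lower and endothelial markers from 1 to 0 higher. Over all genes the share at that level went from 2.96% to 4.97% for lower and from 2.89% to 4.72% for higher levels. Nars, Lars, Yars2, Iars2, Atf4 and Asns kept their sign throughout. The cytosolic median was -0.22 with the local background column and -0.22 in the authors' values, and the mitochondrial median 0.07 and -0.19; the authors' values carried a shift of -0.17 over all probes and the local background one of 0.032. The medians of the response synthetases and of the other response genes, -0.08 and -0.35, were -0.36 and -0.10 with the local background column and -0.26 and -0.56 in the authors' values. With 1 array left out they ranged from -0.20 to 0.01 and from -0.36 to -0.11. The 3 lower genes became 0 with plain subtraction of the blank mean. With the local background column none of the 5 genes was at that level, and the genes that were comprised Rars and Nars2 (lower) and 1 higher (Qars). The 2 higher genes became 1 (Iars2) with plain subtraction, an offset of 16 or all probes kept, and 0 with median scaling and in the authors' values. With 1 array left out there were 1 to 3 lower and 0 to 3 higher genes, and the medians ranged from -0.08 to 0.04 (cytosolic) and -0.04 to 0.04 (mitochondrial).

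With the local background column the sign changed for Hars (-0.25), Sars (-1.21), Farsa (-0.05), Tarsl2 (-0.31), Wars (-0.85), Farsb (0.20), Vars (0.14), Yars (1.05), Cars (-0.36), Mars2 (-0.16), Vars2 (0.31), Rars2 (0.41), Aimp2 (-1.05), Ddit4 (-0.06), Eef1b2 (0.007), Eef2 (-0.20), Pstk (0.09), Gatc (0.08), Polr3k (0.21), Polr3b (0.30) and Pck2 (0.03). In the authors' values it changed for Qars (-0.04), Wars (-0.08), Aars (-0.17), Cars (-0.17), Wars2 (-0.04), Cars2 (-0.05), Sars2 (-0.11), Pars2 (-0.14), Aimp2 (-0.10), Eef1d (-0.08) and Eef2 (-0.05), and with median scaling for Cars (-0.05). With 1 array left out it changed for Gars (-0.19 to 0.06), Yars (-0.20 to 0.11), Pars2 (-0.07 to 0.09), Farsb (-0.27 to 0.04), Vars (-0.09 to 0.03), Aars2 (-0.05 to 0.02), Cars (-0.04 to 0.03), Tars2 (-0.25 to 0.05), Eef2 (-0.05 to 0.23), Mars1 (-0.19 to 0.07), Rars2 (-0.13 to 0.08), Wars (-0.003 to 0.20) and Sars2 (-0.01 to 0.07). The causes were not tested. Of the 37 member genes, 14 kept their sign under all 15 alternatives.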

Other observations

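Further steps of translation gave the following values. Of 11 elongation factor genes, 7 were higher and 4 lower in Cre cultures (median 0.02). Eef1b2, a subunit of the exchange factor that recharges the carrier of aminoacyl-tRNA, stood at -0.22 (SE 0.05), without overlap between the groups, and Eef1a2, a form of that carrier, at 0.29 (SE 0.09). Eef1d, another exchange factor subunit, stood at 0.10 (SE 0.08) and the translocation factor Eef2 at 0.12 (SE 0.16). Of 11 genes of RNA polymerase III, which transcribes transfer RNA, and its regulators, 4 were higher and 7 lower (median -0.05). Among them the subunit gene Polr3k stood at -0.21 (SE 0.07) and the initiation factor gene Brf1 at 0.13 (SE 0.04), while the repressor gene Maf1 stood at -0.09 (SE 0.07) and Polr3b at -0.06 (SE 0.08). None passed over all probes in limma.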
